A study of Mus musculus with 16 samples.

Results

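Cxcl1, Cxcl2 and Cxcl5, which encode chemokines that attract neutrophils, and Csf3, which encodes granulocyte colony-stimulating factor (G-CSF), were followed in the mouse brain 8 h after an injection. The 4 genes were chosen by name and found by their Ensembl IDs among the 33289 genes measured, and all 4 were among the 17349 genes tested. The 16 samples sequenced were hemi-brains of C57BL/6J mice, 3 to 4 months old, that had been perfused with PBS. Each of 4 groups had 4 samples: mice labelled Lcn2-/- and given lipopolysaccharide (LPS), wild type (WT) mice given LPS, mice labelled Lcn2-/- and given saline, and WT mice given saline. LPS, from the outer membrane of Gram-negative bacteria, is sensed by innate immune cells through TLR4 and CD14. Lcn2 encodes lipocalin-2, which captures the iron carriers of bacteria. The sources used here do not give the design of the Lcn2 allele or the dose and route of LPS. No allele other than Lcn2-/- is named in the labels, and nothing in them says that animals were pooled.

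Chemokines with the CXC motif bind heparan sulfate on vessel walls and guide leukocytes out of the blood. CXCL1, CXCL2 and CXCL5 act in the mouse on the receptor CXCR2, through which neutrophils are drawn into inflamed tissue. G-CSF acts on the receptor CSF3R, expands neutrophil precursors in the bone marrow and releases mature neutrophils from it. All 4 genes are known to be switched on by innate immune signals through NF-kB transcription factors, and endothelial cells and astrocytes are among the brain cells known to make such chemokines.

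The 3 chemokine genes lie on the plus strand of chromosome 5 in GRCm38 (GENCODE vM21), and Csf3 (ENSMUSG00000038067) lies on the plus strand of chromosome 11, at 98701263 to 98703629. Cxcl5 (ENSMUSG00000029371) spans 90759360 to 90761624 and opens a run of 7 CXC genes over 146.6 kb. Cxcl1 (ENSMUSG00000029380) at 90891241 to 90893115 and Cxcl2 (ENSMUSG00000058427) at 90903871 to 90905938 are its last genes, 10.8 kb apart. Of the 4 genes, 2 (Cxcl1 and Cxcl2) were matched in RefSeq's promoter table (GRCm38.p6), and Cxcl5 and Csf3 were not. The sequences just upstream of the starts of Cxcl1, Cxcl2 and their neighbour Cxcl3 are shown because these genes carry the same NF-kB string. Capitals mark GGGAATTTCC, a form of the NF-kB binding motif, and ATAAAAGG, a TATA-like string that was chosen after the sequences had been read.
Cxcl1, chr5:90891095-90891240, plus strand: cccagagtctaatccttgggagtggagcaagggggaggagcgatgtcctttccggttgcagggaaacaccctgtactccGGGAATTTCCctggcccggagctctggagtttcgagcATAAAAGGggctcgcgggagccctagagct
Cxcl2, chr5:90903749-90903870, plus strand: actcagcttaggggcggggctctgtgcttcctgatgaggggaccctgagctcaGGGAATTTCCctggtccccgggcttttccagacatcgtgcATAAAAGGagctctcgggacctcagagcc
Cxcl3, chr5:90785951-90786100, plus strand: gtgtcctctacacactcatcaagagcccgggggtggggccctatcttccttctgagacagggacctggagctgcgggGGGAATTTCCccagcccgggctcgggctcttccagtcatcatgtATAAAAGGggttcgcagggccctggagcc
The NF-kB string began 71, 97 and 73 bases before the RefSeq start of Cxcl1, Cxcl2 and Cxcl3, and the TATA-like string began 37, 40 and 44 bases after the NF-kB string, in the same order of genes. The stretches printed for Cxcl1 (146 bases) and Cxcl2 (122 bases) end at their GENCODE starts, which lie upstream of their RefSeq starts. Distances to the RefSeq start are therefore longer for Cxcl1 and Cxcl2 than the printed bases alone show. Both strands were searched over the 150 bases before each RefSeq start. GGGAATTTCC was found in 20 of 32851 promoters (0.0609%), ATAAAAGG in 344 (1.05%) and TGANTCA, the AP-1 motif, in 4.24%, with no match in these 3 promoters. The motifs do not overlap one another there. Of the 20 genes with GGGAATTTCC, 10 were tested. In brains labelled Lcn2-/-, 3 of the 10 rose after LPS, namely Cxcl1, Cxcl2 and the NF-kB inhibitor gene Nfkbia, and 2 fell, namely Slc6a13 and Zfp84. In WT brains, Cxcl1, Cxcl2, Nfkbia, Csad and Trio rose and Slc6a13 fell. Of all genes tested, 20.7% rose and 27.7% fell under the Lcn2-/- label, and 11.4% rose and 13.9% fell in WT. Cxcl1 and Cxcl2 are the genes for which the string is shown, so nothing is read from these counts.

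Before the members, the libraries and the label were checked. The deposited values are log2 RPKM (reads scaled to gene length and to the total reads of the library) after conditional quantile normalization, so library depth is unknown and counting error cannot be stated. Between 16372 and 16497 genes lay at 0.5 RPKM or above in 15 libraries, and saline replicate 4 labelled Lcn2-/- stood apart with 17112. Its sample title alone ends in a letter, for which the labels used here give no reason. Low values were spread differently by treatment, with a 25th percentile of log2 RPKM between -5.78 and -4.58 in LPS libraries and between -4.12 and -2.73 in saline libraries. Lcn2 was measured at 40.2, 34.1, 38.3 and 37.2 RPKM in LPS brains labelled Lcn2-/-, against 71.5, 67.8, 66.7 and 82.7 RPKM in LPS brains of WT mice. After saline it was 0.132, 0.204, 0.351 and 0.247 RPKM under the Lcn2-/- label and 0.0650, 0.0741, 0.204 and 0.137 RPKM in WT, levels at which detection cannot be told without counts. The transcript was present in all 4 LPS libraries with the knockout label, so the group is called by its label throughout. The table has 1 value a gene, so the exons behind it cannot be told. Markers of the labelled tissue were high in every library: the 5 neuron markers summed to between 600 and 663 RPKM and the 5 oligodendrocyte markers to between 680 and 793 RPKM.

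After LPS, all 4 genes were measured at more than 0.5 RPKM in each of the 8 libraries, and in none of the 8 saline libraries did any of them reach that level. Cxcl1 lay at 40.8, 23.7, 36.1 and 30.0 RPKM after LPS in brains labelled Lcn2-/- and at 10.5, 9.89, 9.82 and 11.3 RPKM after LPS in WT brains. In saline libraries it was 0.112, 0.127, 0.302 and 0.261 RPKM in brains labelled Lcn2-/- and 0.113, 0.113, 0.0996 and 0.266 RPKM in WT brains. After LPS every library labelled Lcn2-/- was above every WT library, and after saline the genotypes overlapped.

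Cxcl2 had a lower level and a wider gap between the genotypes. It lay at 17.9, 6.79, 14.0 and 9.55 RPKM after LPS in brains labelled Lcn2-/- and at 1.71, 2.42, 2.14 and 1.96 RPKM after LPS in WT brains. In saline libraries it was 0.0389, 0.0604, 0.0418 and 0.101 RPKM in brains labelled Lcn2-/- and 0.0779, 0.0840, 0.0436 and 0.0436 RPKM in WT brains. The lowest LPS library labelled Lcn2-/- was above the highest WT library given LPS.

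Csf3 followed Cxcl1 closely in level. It lay at 31.6, 23.4, 29.3 and 23.4 RPKM after LPS in brains labelled Lcn2-/- and at 8.11, 8.32, 8.84 and 8.96 RPKM after LPS in WT brains. In saline libraries it was 0.0665, 0.0537, 0.0754 and 0.0643 RPKM in brains labelled Lcn2-/- and 0.0604, 0.0404, 0.0404 and 0.0484 RPKM in WT brains. Its LPS libraries were the least spread of the 4 genes, with a range of 1.35-fold under the Lcn2-/- label and 1.1-fold in WT.

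Cxcl5, the most distant member of the chromosome 5 run, was the lowest after LPS. It lay at 1.45, 0.963, 1.71 and 1.44 RPKM after LPS in brains labelled Lcn2-/- and at 0.574, 0.556, 0.853 and 0.910 RPKM after LPS in WT brains. In saline libraries it was 0.171, 0.304, 0.341 and 0.0665 RPKM in brains labelled Lcn2-/- and 0.219, 0.418, 0.387 and 0.173 RPKM in WT brains. After LPS, the lowest value under the Lcn2-/- label was 0.963 RPKM and the highest WT value was 0.910 RPKM, the narrowest gap between the genotypes among the 4 genes.

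**Figure D1:**
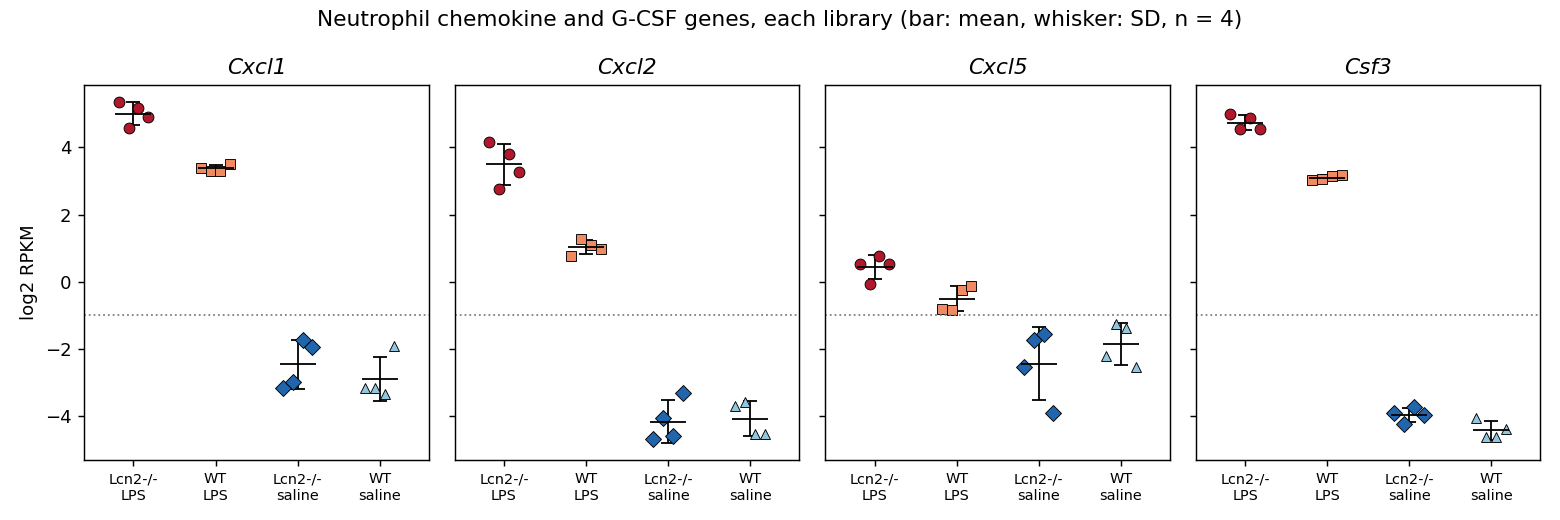
Log2 RPKM of Cxcl1, Cxcl2, Cxcl5 and Csf3 in each of the 16 libraries, by group, with the group mean as a bar and the SD as a whisker (n = 4). The dotted line is the level of the filter on low values, log2 RPKM of -1 (0.5 RPKM): all LPS libraries lie above it and all saline libraries below it.

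RPKM is scaled to length, so the levels of the 4 genes are listed in order. How reads shared between similar chemokine genes were treated is not known, so this order and ratios of level between the genes are descriptions. After LPS in brains labelled Lcn2-/-, Cxcl1 averaged 32.6 ± 7.42 RPKM, Csf3 26.9 ± 4.20, Cxcl2 12.1 ± 4.90 and Cxcl5 1.39 ± 0.310 RPKM (SD, n = 4). In WT brains after LPS, Cxcl1 averaged 10.4 ± 0.673 RPKM, Csf3 8.56 ± 0.407, Cxcl2 2.06 ± 0.302 and Cxcl5 0.723 ± 0.184 RPKM (SD, n = 4). The ranges of Cxcl1 and Csf3 overlapped under the Lcn2-/- label and not in WT, and within each of the 8 libraries Cxcl1 was the higher of the pair. Among all genes of a library, Cxcl1 stood at the 94.1 to 97.1 percentile after LPS under the Lcn2-/- label and at the 85.1 to 86.8 percentile in WT. After saline, the 4 genes lay between the 5.93 and the 49.0 percentile, a range in which it cannot be told without counts whether a transcript was detected.

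For Cxcl1, Cxcl2 and Csf3, the libraries labelled Lcn2-/- and given LPS spread more on the log2 scale than the WT ones. Replicate 2 was the lowest of its group for Cxcl1, Cxcl2 and Cxcl5, and replicate 1 the highest for Cxcl1, Cxcl2 and Csf3. Csf3 was lowest in replicate 4, at 23.36 RPKM against 23.42 RPKM in replicate 2, and Cxcl5 highest in replicate 3. Cxcl2 ranged 2.64-fold under the Lcn2-/- label, against 1.42-fold in WT, and Cxcl1 ranged 1.72-fold, against 1.15-fold in WT. Cxcl5 ranged 1.77-fold under the Lcn2-/- label and 1.64-fold in WT, with a log2 SD of 0.35 and 0.37. These differences in spread were not tested.

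In brains labelled Lcn2-/-, LPS was compared with saline first. All 4 genes rose. Csf3 rose 414-fold (log2 8.69 ± 0.15, ± SE, n = 4 against 4, limma adjusted p = 2e-15), Cxcl2 201-fold (7.65 ± 0.34, limma adjusted p = 6.1e-11) and Cxcl1 175-fold (7.45 ± 0.33, limma adjusted p = 5.4e-11). Cxcl5 rose 7.34-fold (2.88 ± 0.43, limma adjusted p = 6.2e-05). Of all genes tested, 20.7% were called higher in this comparison, but the 4 genes passed the filter on low values through their LPS libraries alone, so their count is given as a description. Ordered by the size of the increase, Csf3, Cxcl2 and Cxcl1 stood at places 3, 4 and 5 of 17349 genes, and Cxcl5 at place 166. Every LPS library was above every saline library, as for 18.6% of all genes tested. Saline values were so low that the size of the increase rests on the scale, and on log2(RPKM + 0.5) it was 5.59 for Csf3, 4.40 for Cxcl2, 5.55 for Cxcl1 and 1.39 for Cxcl5. Without the saline library that stood apart, the increase of Cxcl5 was 2.38 ± 0.33 and that of Cxcl2 7.93 ± 0.31 on the log2 scale.

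In WT brains all 4 genes rose after LPS too. Csf3 rose 183-fold (log2 7.52 ± 0.15, ± SE, n = 4 against 4, limma adjusted p = 1.9e-14), Cxcl1 76.4-fold (6.26 ± 0.33, limma adjusted p = 7.8e-10) and Cxcl2 34.4-fold (5.10 ± 0.34, limma adjusted p = 1.3e-08). Cxcl5 rose 2.53-fold (1.34 ± 0.43, limma adjusted p = 0.033). Here 11.4% of all genes tested were called higher, 13.8% were higher without overlap as the 4 genes were, and the filter bears on these counts in the same way. On log2(RPKM + 0.5) the increases were 4.05 for Csf3, 4.08 for Cxcl1, 2.18 for Cxcl2 and 0.61 for Cxcl5, so Csf3 no longer exceeded Cxcl1. The call for Cxcl5 rested on single libraries: without WT saline replicate 1 or 4, or without WT LPS replicate 3 or 4, its adjusted p lay between 0.077 and 0.10 (log2 1.10 to 1.25).

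After LPS, Cxcl1, Cxcl2 and Csf3 were higher in brains labelled Lcn2-/- than in WT brains. Cxcl2 was 5.53-fold higher (log2 2.47 ± 0.34, ± SE, n = 4 against 4, limma adjusted p = 0.00029), Csf3 3.12-fold higher (1.64 ± 0.15, limma adjusted p = 6.6e-06) and Cxcl1 3.09-fold higher (1.63 ± 0.33, limma adjusted p = 0.0042). Of all genes tested, 7.04% were called higher here, and each of the 4 genes lay above the filter in all 8 LPS libraries. Cxcl5 was 1.93-fold higher, at 0.95 ± 0.43 on the log2 scale, and did not pass (limma adjusted p = 0.15). Its 95% confidence interval, 0.03 to 1.87, holds differences of the size seen for Cxcl1 and Csf3. On log2(RPKM + 0.5) Cxcl5 passed, with a difference of 0.62 (limma adjusted p = 0.014), and so it did without the saline library that stood apart (0.95 ± 0.30, limma adjusted p = 0.029). In all 4 genes the 4 libraries labelled Lcn2-/- lay above all 4 WT libraries, as in 13.3% of all genes tested. By the size of this difference, Cxcl2 stood at place 7 of 17349 genes, Csf3 at 41, Cxcl1 at 42 and Cxcl5 at 177.

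After saline, none of the 4 genes was called between brains labelled Lcn2-/- and WT brains with limma, and in each the groups overlapped. The differences were 0.43 ± 0.33 for Cxcl1, -0.08 ± 0.34 for Cxcl2, -0.59 ± 0.43 for Cxcl5 and 0.46 ± 0.15 for Csf3 on the log2 scale (± SE, n = 4 against 4). Of all genes tested, 0.0461% were called either way in this comparison. At an unadjusted limma p under 0.05, 1 of the 4 genes, Csf3 (adjusted p = 0.38), and 10.9% of all genes tested passed. On log2(RPKM + 0.5) the difference of Csf3 was 0.05. Without the library that stood apart, Cxcl5 differed by -0.10 and Cxcl2 by -0.36, and none of the 4 passed (limma adjusted p from 0.36 for Csf3 to 0.95 for Cxcl5).

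**Figure D2:**
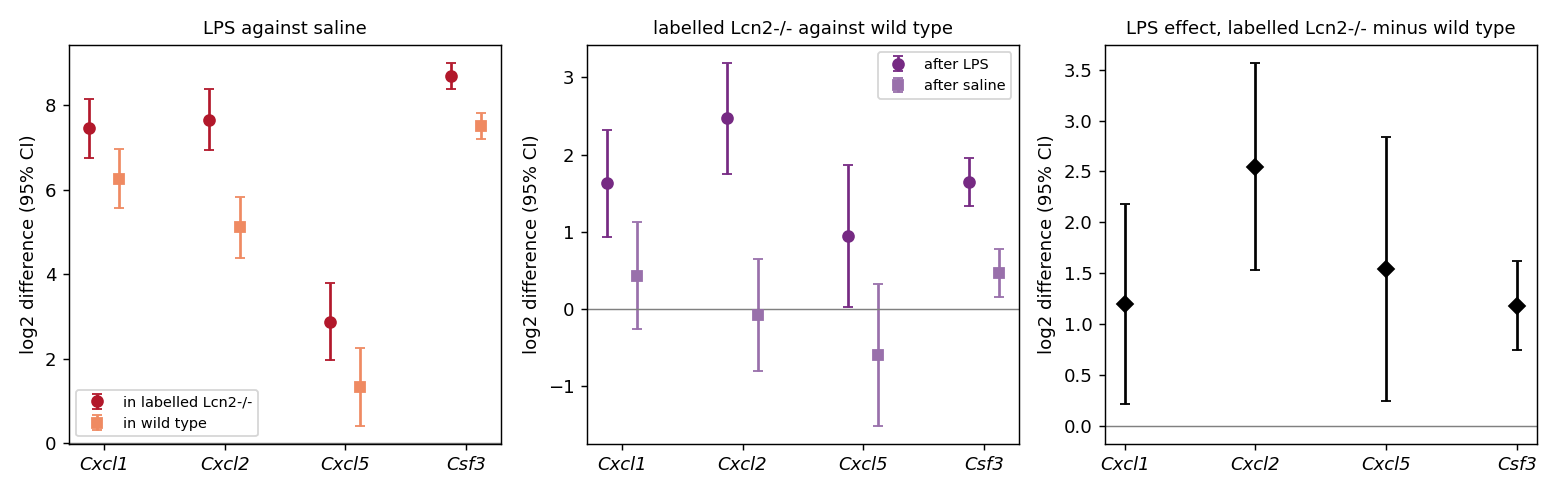
Estimated log2 differences with 95% confidence intervals from limma (n = 4 per group) for the 4 genes: LPS against saline in each genotype, labelled Lcn2-/- against WT after each injection, and the difference between the LPS effects. The largest genotype difference after LPS is that of Cxcl2 (2.47), and after saline the intervals of Cxcl1, Cxcl2 and Cxcl5 span 0.

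The interaction asked whether the LPS effect itself differed between the genotypes. It was larger in brains labelled Lcn2-/- by 2.55 ± 0.48 for Cxcl2 (limma adjusted p = 0.0071) and by 1.18 ± 0.21 for Csf3 (limma adjusted p = 0.0045). These are log2 values with their SE from 4 samples in each group. For Cxcl1 (1.20 ± 0.46, limma adjusted p = 0.11) and Cxcl5 (1.54 ± 0.61, limma adjusted p = 0.12) it did not pass. Of all genes tested, 3.9% were called with a higher and 4.92% with a lower LPS effect under the Lcn2-/- label. On log2(RPKM + 0.5) all 4 genes passed, with 1.47 for Cxcl1 (limma adjusted p = 0.00045) and 0.78 for Cxcl5 (limma adjusted p = 0.039). Without the library that stood apart, the values were 2.83 for Cxcl2, 1.18 for Csf3, 1.37 for Cxcl1 and 1.05 for Cxcl5, with the same calls. Lcn2 itself went the other way, with an LPS effect smaller by 1.97 ± 0.44 under its own knockout label (limma adjusted p = 0.016). Part of this came from saline values, at levels where detection cannot be told. Lcn2 differed by 1.03 ± 0.31 after saline (limma adjusted p = 0.37) and by -0.94 ± 0.31 after LPS (limma adjusted p = 0.05), neither called. On log2(RPKM + 0.5) its interaction was -1.17 (limma adjusted p = 0.00013).

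The proportions of the 4 genes to each other after LPS were compared between the genotypes. An exact permutation test passed for 4 of 6 pairs, a count given as a description. The 6 ratios share 4 genes and are not independent of each other. Cxcl5, the lowest of the genes after LPS, is in every passing pair but Cxcl1 to Cxcl2. The share of all gene pairs that would pass was not computed. After LPS, Cxcl1 was 2.83-fold the level of Cxcl2 in brains labelled Lcn2-/- and 5.08-fold in WT brains, a log2 ratio of 1.50 ± 0.28 against 2.34 ± 0.28 (SD, n = 4 each). The 2-sided exact permutation test gave p = 0.0286, the smallest p that 4 against 4 libraries allow, and 0.0429 after adjustment over the 6 pairs. Cxcl2 to Cxcl5 shifted the most, with a log2 ratio of 3.05 ± 0.40 under the Lcn2-/- label and 1.53 ± 0.44 in WT (SD, n = 4 each), at the same exact p-values. The exact test also reached p = 0.0286 for Cxcl1 to Cxcl5 (4.55 ± 0.20 against 3.88 ± 0.35) and Cxcl5 to Csf3 (-4.29 ± 0.28 against -3.60 ± 0.31), each with the Lcn2-/- label first and WT after it, and 0.0429 after adjustment. The log2 ratio of Cxcl1 to Csf3 was 0.26 ± 0.17 under the Lcn2-/- label and 0.28 ± 0.10 in WT (exact p = 0.857). Cxcl2 to Csf3 gave -1.24 ± 0.41 under the Lcn2-/- label and -2.07 ± 0.21 in WT (exact p = 0.0571). With any library left out, 3 against 4 cannot pass this test. On log2(RPKM + 0.5), the same 4 pairs passed.

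**Figure D3:**
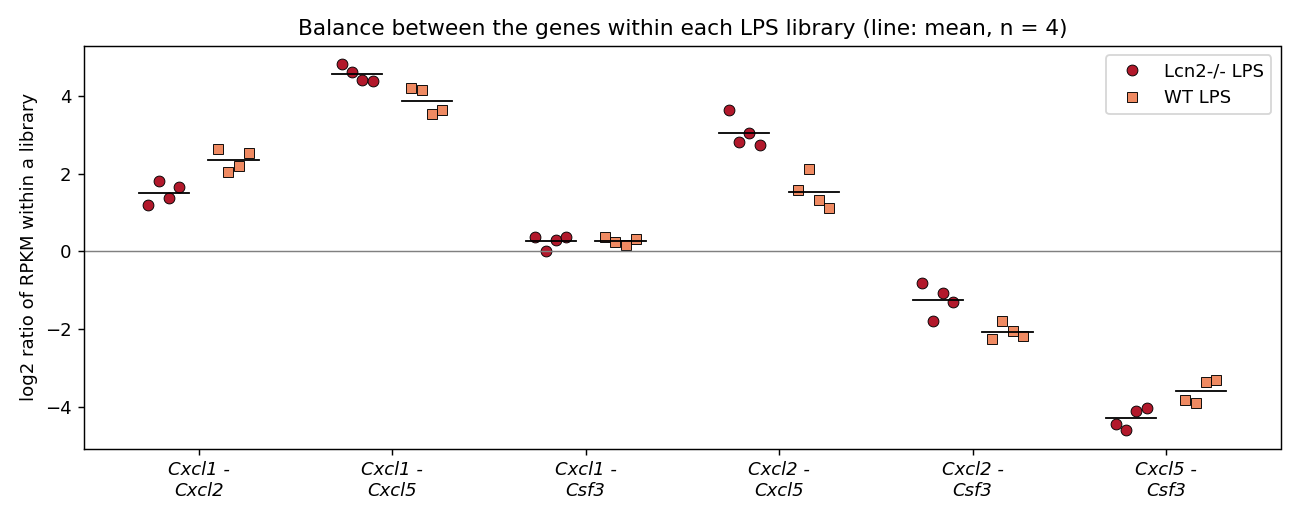
Log2 ratio of RPKM between each pair of the 4 genes within each LPS library, with the group mean as a line (n = 4 per genotype). The libraries of the genotypes stand apart for Cxcl1 to Cxcl2 and for Cxcl2 to Cxcl5, and lie together for Cxcl1 to Csf3 (means 0.26 and 0.28).

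Besides the members, the run of CXC genes on chromosome 5 holds Ppbp and Pf4, both platelet chemokine genes, Cxcl3, a further CXCR2 ligand gene, and Cxcl15. Cxcl3 was under the filter and not tested. It lay at 0.193, 0.252, 0.417 and 0.177 RPKM after LPS in brains labelled Lcn2-/- and at 0.0155, 0.0473, 0.0159 and 0.0791 RPKM after LPS in WT brains. The groups did not overlap after LPS, but after saline Cxcl3 lay at 0.0338 to 0.0845 RPKM under the Lcn2-/- label and at 0.0356 to 0.0373 RPKM in WT, overlapping its WT values after LPS. Pf4 was called in no comparison (limma adjusted p from 0.11 after LPS between the genotypes upward), and Ppbp and Cxcl15 stayed under 0.5 RPKM in every library. Increases after LPS were therefore called for Cxcl5, Cxcl1 and Cxcl2 and not for Pf4, the only tested gene between them. The other genes between them were under the filter, so the calls do not describe them. Under the Lcn2-/- label, Cxcl3 lay higher in every LPS library than in any saline library.

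**Figure D4:**
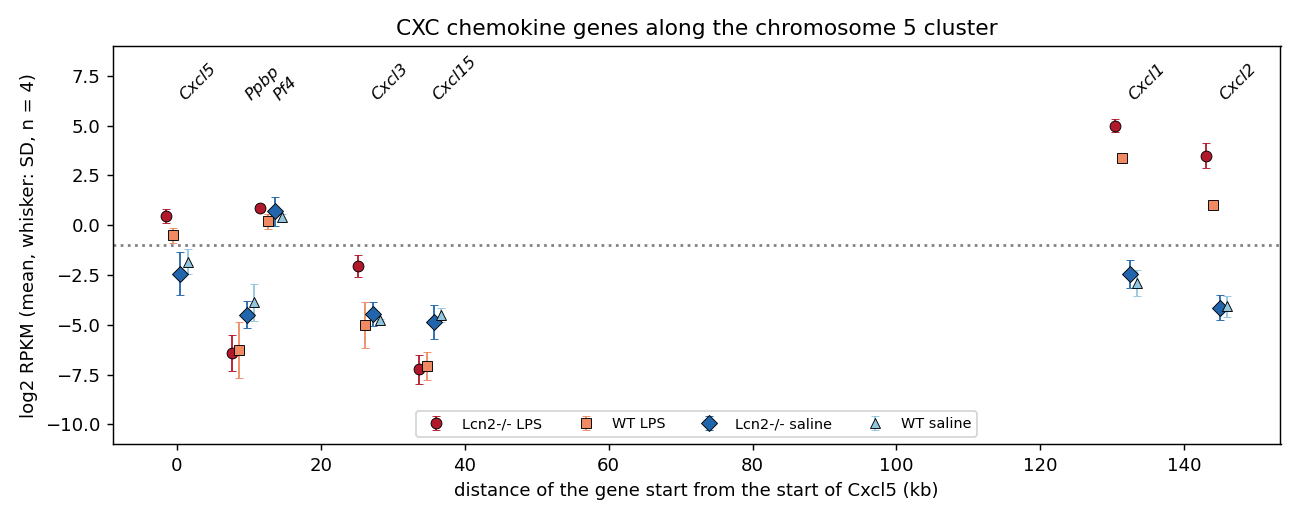
Mean log2 RPKM (whisker: SD, n = 4) of the 7 CXC genes against the distance of their starts from the start of Cxcl5, with the 4 groups set slightly apart sideways. The dotted line is log2 RPKM of -1, the level of the filter: Cxcl5, Cxcl1 and Cxcl2 lie above it after LPS and below it after saline, and Cxcl3 lies below it throughout.

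Of the members' own receptor genes, Csf3r fell after LPS, and Cxcr2 and Cxcr1 were too low to be tested. Cxcr2, which encodes the receptor of the 3 chemokines, had 0.336, 0.447, 0.396 and 0.382 RPKM after LPS in brains labelled Lcn2-/- and 0.337, 0.359, 0.344 and 0.269 RPKM after LPS in WT brains, and all libraries overlapped with saline (0.228 to 0.534 RPKM). Cxcr1 was at 0.0650 RPKM or less in every library. Csf3r, the G-CSF receptor gene, fell in brains labelled Lcn2-/- (log2 -0.98 ± 0.14, ± SE, n = 4 against 4, limma adjusted p = 5.2e-05) and in WT brains (-0.57 ± 0.14, limma adjusted p = 0.0075). It lay at 0.486 to 0.702 RPKM after LPS under the Lcn2-/- label, 0.555 to 0.733 RPKM after LPS in WT, 0.985 to 1.41 RPKM after saline under the Lcn2-/- label and 0.923 to 1.10 RPKM after saline in WT. Between the genotypes after LPS it was not called (-0.21 ± 0.14, limma adjusted p = 0.33). The atypical receptor genes Ackr1, which encodes a chemokine-binding receptor of venules and red cells, and Ackr2, which encodes a scavenger of inflammatory CC chemokines, rose. Ackr1 rose by 0.25 ± 0.03 on the log2 scale under the Lcn2-/- label and by 0.21 ± 0.03 in WT (limma adjusted p = 1.5e-05 and 0.00011), and Ackr2 by 0.63 ± 0.20 and 0.98 ± 0.20 (limma adjusted p = 0.017 and 0.0018), in the same order of groups. Ackr1 was high in every library, at 35.8 to 44.8 RPKM, and the reads behind this value cannot be told. In bulk tissue, fewer cells of a type and less RNA per cell cannot be told apart. Neither atypical receptor gene was called between the genotypes, and the median change of the 3 receptor genes tested of 5 was 0.25 under the Lcn2-/- label and 0.21 in WT.

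Cxcl12, whose product holds neutrophils in the marrow through the receptor CXCR4 and lines brain vessels, fell after LPS by 1.90 ± 0.08 on the log2 scale in brains labelled Lcn2-/- and by 1.50 ± 0.08 in WT brains (limma adjusted p = 3.3e-11 and 9.8e-10). After LPS it was lower under the Lcn2-/- label than in WT (-0.32 ± 0.08, limma adjusted p = 0.013). Cxcr4 fell by 1.82 ± 0.34 on the log2 scale after LPS in brains labelled Lcn2-/- (limma adjusted p = 0.00044) and was -0.78 ± 0.34 in WT (limma adjusted p = 0.11). Cxcl16, which encodes a membrane-bound chemokine, rose by 2.08 ± 0.11 and 1.14 ± 0.11 in the same order of groups, and after LPS it was higher under the Lcn2-/- label by 0.88 ± 0.11 (limma adjusted p = 0.0001). The B cell chemokine gene Cxcl13 rose by 2.07 ± 0.45 under the Lcn2-/- label and by 2.55 ± 0.45 in WT. The list of other chemokine genes held 11 genes: 10 CXC ligand and receptor genes and Cx3cl1, of the CX3C class. Of its 8 tested genes, 3 rose and 3 fell (Cxcl12, Cxcr4 and Cx3cl1) after LPS under the Lcn2-/- label, 3 rose and 1 fell in WT, and 2 were higher and 2 lower under the Lcn2-/- label than in WT after LPS. Their median change after LPS was 0.11 and -0.06 on the log2 scale under the Lcn2-/- label and in WT, against -0.03 and -0.02 over all genes tested. The list does not hold every CXC ligand: Cxcl10 and Cxcl9, the CXCR3 ligand genes, were not in it, and rose by 8.95 ± 0.39 and 6.48 ± 0.30 on the log2 scale under the Lcn2-/- label and by 5.78 ± 0.39 and 4.33 ± 0.30 in WT.

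**Figure D5:**
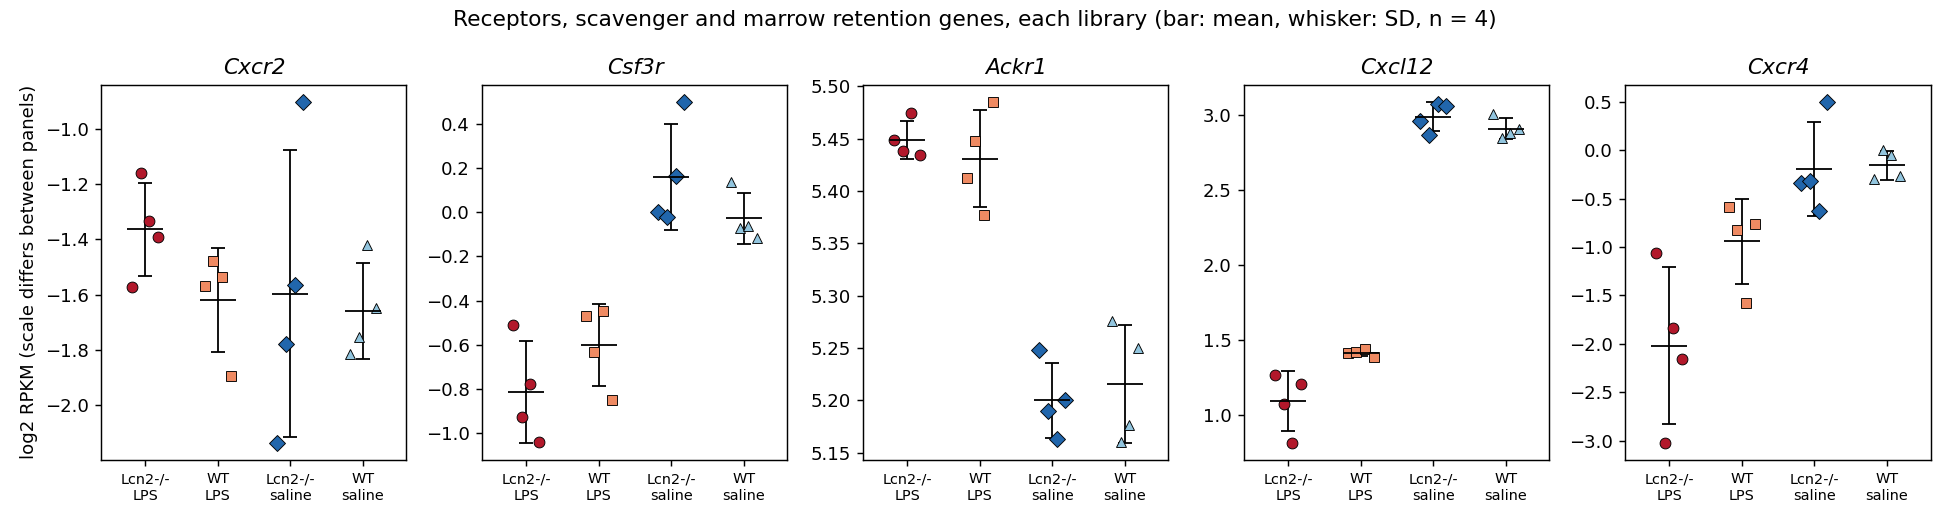
Log2 RPKM of Cxcr2, Csf3r, Ackr1, Cxcl12 and Cxcr4 in each library, with the mean as a bar and the SD as a whisker (n = 4); the scale differs between panels. Csf3r and Cxcl12 lie lower in all LPS libraries than in any saline library, while the groups of Cxcr2 overlap.

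Genes around G-CSF and its production were read from lists of pathway genes, each given by its counts. The lists were chosen with earlier results of these data known. As the background, 20.7% of all genes tested rose and 27.7% fell after LPS under the Lcn2-/- label. In WT, 11.4% rose and 13.9% fell. Between the genotypes after LPS, 7.04% were higher and 8.74% lower under the Lcn2-/- label. Of 6 tested colony-stimulating factor and receptor genes, 3 rose and 2 fell after LPS under the Lcn2-/- label, 3 rose and 1 fell in WT, and 1, Csf1, was higher under the Lcn2-/- label after LPS (log2 0.33 ± 0.06, limma adjusted p = 0.0031). The receptor subunit genes Csf2rb (log2 2.85 ± 0.16 under the Lcn2-/- label, 2.18 ± 0.16 in WT) and Csf2rb2 (2.42 ± 0.14 and 1.75 ± 0.14) rose the most, and Csf1, the microglial growth factor gene, rose by 0.90 ± 0.06 and 0.57 ± 0.06. The median change of the 6 was 0.38 and 0.27. Csf2, the gene of the related factor GM-CSF, was under the filter, at 0.0105 to 0.0665 RPKM after LPS under the Lcn2-/- label and 0.00597 to 0.0150 RPKM after LPS in WT.

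Interleukin-17 is known to raise Cxcl1, Cxcl2, Cxcl5 and Csf3, in part by making their mRNAs more stable. Its genes Il17a, Il17f and Il17c were under the filter. Of 6 genes tested of 11 in the interleukin-17 and granulopoiesis list, 3 rose and 1 fell after LPS under the Lcn2-/- label, 2 rose in WT, and 2 were higher under the Lcn2-/- label after LPS. These were the receptor gene Il17ra (log2 0.48 ± 0.07, limma adjusted p = 0.00044) and Il6 (1.94 ± 0.26, limma adjusted p = 0.00023). After LPS, Il6 rose by 4.43 ± 0.26 on the log2 scale under the Lcn2-/- label and by 3.50 ± 0.26 in WT, and Il17ra by 1.17 ± 0.07 and 0.62 ± 0.07. The median change of the 6 was 0.24 and 0.12.

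Of 10 tested cytokine and signal transducer genes, 7 rose after LPS under the Lcn2-/- label and 6 in WT, 3 were higher under the Lcn2-/- label after LPS, and none fell. Their median log2 change was 1.54 under the Lcn2-/- label and 0.90 in WT, against -0.03 and -0.02 over all genes tested. Cd14, the LPS co-receptor gene, rose by 3.98 ± 0.15 on the log2 scale under the Lcn2-/- label and by 3.13 ± 0.15 in WT, and was higher by 1.31 ± 0.15 under the Lcn2-/- label after LPS (limma adjusted p = 7.3e-05). Il1b rose by 2.90 ± 0.34 and 2.48 ± 0.34 and was not called between the genotypes after LPS (0.79 ± 0.34, limma adjusted p = 0.13). Il1a was called under the Lcn2-/- label (2.17 ± 0.29) and not in WT (0.80 ± 0.29, limma adjusted p = 0.053). Tnf and Tlr4 were under the filter.

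Of 13 tested transcription factor and cofactor genes known to act on such promoters, 11 rose and 1 fell after LPS under the Lcn2-/- label, and 10 rose and 1 fell in WT. After LPS, 9 of the 13 were higher under the Lcn2-/- label than in WT and none was lower. Of all genes tested, 7.04% were higher there. Their median log2 difference there was 0.43, against -0.01 over all genes tested. Atf3, a stress-induced factor, was higher by 1.74 ± 0.23 on the log2 scale (limma adjusted p = 0.00018), Irf1 by 1.34 ± 0.12 (7.9e-06), and Nfkbiz, whose product IkB-zeta is a cofactor for secondary NF-kB target genes, by 1.03 ± 0.10 (1.6e-05). The NF-kB subunit gene Relb rose after LPS by 1.52 ± 0.14 under the Lcn2-/- label and by 0.56 ± 0.14 in WT, and was higher under the label after LPS (limma adjusted p = 0.00035). Cebpd rose by 3.04 ± 0.16 under the Lcn2-/- label and by 3.00 ± 0.16 in WT, and was not called between the genotypes after LPS (0.36 ± 0.16, limma adjusted p = 0.13). The immediate early gene Egr1 fell by 1.49 ± 0.10 on the log2 scale under the Lcn2-/- label and by 1.10 ± 0.10 in WT.

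The mRNAs of all 4 genes carry ATTTA, the core of AU-rich elements through which such mRNAs are known to be degraded. In the longest annotated 3′ UTR of each gene, ATTTA occurred 7 times in 592 bases in Cxcl1, 11 times in 1494 bases in Cxcl2, 5 times in 1111 bases in Cxcl5 and 6 times in 669 bases in Csf3. That is 11.8, 7.36, 4.5 and 8.97 per kilobase in that order of genes, against a median of 1.29 over 13886 tested genes, of which 69.6% held at least 1 copy. The longer form ATTTATTTA occurred 2 times in Cxcl1, 4 times in Cxcl2 and in neither Cxcl5 nor Csf3, and 6.63% of those genes held it. The shorter motif lies inside the longer one, and only the transcript strand was searched. Cxcl5 had the lowest density of the 4, and Lcn2 held no copy in 232 bases. A link between this density and the size of the LPS increase was not tested.

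Of 13 tested genes for mRNA decay and feedback, 8 rose and 1 fell after LPS under the Lcn2-/- label, 7 rose and 1 fell in WT, and 7 were higher under the Lcn2-/- label after LPS and none lower. The median log2 difference between the genotypes after LPS was 0.49. Zfp36, which encodes the AU-rich element binding protein tristetraprolin, rose by 3.06 ± 0.12 on the log2 scale under the Lcn2-/- label and by 2.17 ± 0.12 in WT, and was higher by 0.82 ± 0.12 under the Lcn2-/- label after LPS (limma adjusted p = 0.00059). Zc3h12a, the gene of the endonuclease regnase-1, rose by 2.30 ± 0.16 and 1.57 ± 0.16, and was higher by 0.97 ± 0.16 after LPS (limma adjusted p = 0.0014). Arid5a, whose product stabilises inflammatory mRNAs, was higher by 1.10 ± 0.12 after LPS (limma adjusted p = 3.2e-05), and the NF-kB feedback gene Tnfaip3 by 1.30 ± 0.13 (limma adjusted p = 2.6e-05). Socs3, which encodes an inhibitor of G-CSF receptor signalling, rose by 4.22 ± 0.11 on the log2 scale under the Lcn2-/- label and by 3.20 ± 0.11 in WT, and was higher by 1.10 ± 0.11 after LPS (limma adjusted p = 2.3e-05).

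G-CSF receptors signal through JAK kinases and STAT3. Of 10 tested genes of that list, 6 rose and 3 fell after LPS under the Lcn2-/- label, 6 rose and 1 fell in WT, and after LPS 2 were higher and 1 lower under the Lcn2-/- label, with a median change after LPS of 0.24 and 0.22. Bcl3 rose by 4.19 ± 0.24 on the log2 scale under the Lcn2-/- label and by 3.62 ± 0.24 in WT, and Stat3 by 1.54 ± 0.06 and 1.18 ± 0.06. Pim1 was higher by 0.77 ± 0.10 under the Lcn2-/- label after LPS (limma adjusted p = 0.00012). Of 7 tested endothelial adhesion genes, 4 rose and 2 fell after LPS under the Lcn2-/- label, 3 rose and 1 fell in WT, and 4 were higher and 2 lower under the Lcn2-/- label after LPS, with a median change after LPS of 0.38 and -0.02. The 5 endothelial markers, of which Pecam1 is also in this list, summed to a median of 48.0 RPKM after LPS under the Lcn2-/- label, 45.3 RPKM after LPS in WT, 67.0 RPKM after saline under the Lcn2-/- label and 72.3 RPKM after saline in WT. Of these markers 3 fell and 1, Cdh5, rose after LPS under each label. Flt1 and Slco1a4 fell under both labels, Pecam1 under the Lcn2-/- label alone and Cldn5 in WT alone. The part of the endothelial markers in the adhesion genes' values was not tested. Selp, the P-selectin gene, rose by 5.42 ± 0.29 on the log2 scale under the Lcn2-/- label and by 4.31 ± 0.29 in WT, and Icam1 by 4.23 ± 0.10 and 2.95 ± 0.10. After LPS, Icam1 was higher by 1.41 ± 0.10 under the Lcn2-/- label (limma adjusted p = 9.9e-07). No gene of these 9 lists was called between the genotypes after saline, where 0.0461% of all genes tested were called either way.

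Neutrophils are the cells these chemokines act on. Their 18 markers summed to between 16.5 and 33.8 RPKM (median 24.8) after LPS under the Lcn2-/- label, 16.4 to 22.6 RPKM (19.8) after LPS in WT, 7.78 to 10.3 RPKM (9.62) after saline under the Lcn2-/- label and 5.84 to 12.1 RPKM (7.71) after saline in WT. Of 8 markers tested, 5 rose and 1, Csf3r, fell after LPS under each genotype label, and none was called between the genotypes after LPS. Fpr1, Fpr2, S100a8 and S100a9 rose under both labels, Ngp under the Lcn2-/- label alone and Retnlg in WT alone. Camp was called under neither label, at 0.89 ± 0.47 on the log2 scale under the Lcn2-/- label and -0.95 ± 0.47 in WT. S100a8 rose by 1.98 ± 0.46 on the log2 scale under the Lcn2-/- label and by 2.03 ± 0.46 in WT. The granule genes Elane and Mpo and the surface marker gene Ly6g lay at 0.188 RPKM or less in every library. Between 10 and 12 of the 18 markers stayed under 0.5 RPKM in all libraries of a group. The 6 platelet markers summed to 122 to 127 RPKM after LPS under the Lcn2-/- label, 107 to 109 RPKM after LPS in WT, 101 to 124 RPKM after saline under the Lcn2-/- label and 112 to 124 RPKM after saline in WT. A single marker, Gp1bb, carried that sum, with 119 to 124 RPKM after LPS under the Lcn2-/- label and 105 to 107 RPKM after LPS in WT, while Pf4 lay at 1.58 to 2.09 and 0.889 to 1.61 RPKM. The reads behind the Gp1bb value cannot be told, so no difference in platelets is read from the sum. The 5 erythroid markers summed to 5.54 to 8.66 RPKM after LPS under the Lcn2-/- label, 3.72 to 5.35 RPKM after LPS in WT, 4.21 to 7.47 RPKM after saline under the Lcn2-/- label and 4.91 to 11.8 RPKM after saline in WT. Of the 5 microglia markers, 5 fell after LPS under the Lcn2-/- label and 4 in WT, with median sums of 47.0 RPKM after LPS under the Lcn2-/- label, 50.2 RPKM after LPS in WT, 67.1 RPKM after saline under the Lcn2-/- label and 69.8 RPKM after saline in WT. Over both genotypes, the mural cell markers summed to 34.9 to 41.1 RPKM after LPS and 41.2 to 48.3 RPKM after saline, and the choroid plexus markers to 418 to 475 and 475 to 651 RPKM. The monocyte markers summed to 3.64 to 4.27 RPKM after LPS and 2.57 to 3.22 RPKM after saline, and the meningeal fibroblast markers to 22.5 to 29.6 and 19.2 to 22.5 RPKM. The astrocyte markers lay between 242 and 282 RPKM in all libraries. The part of these cells in the members' values was not tested.

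Likeness was taken as the root mean square distance between log2 profiles over the 16 libraries, each centred on its own mean. The members were left out of the rankings and are given apart, and predicted or unnamed genes were skipped. Among the remaining tested genes, those most like Cxcl1 were Serpina3f (0.591), Ccl5 (0.611), Slfn4 (0.663), Cxcl10 (0.747) and Mmp3 (0.752). Those most like Cxcl2 were Ccl2 (0.611), Cxcl9 (0.7), Slfn4 (0.734), Serpina3f (0.745) and Mmp3 (0.753), and those most like Csf3 were Cxcl10 (0.789), Serpina3f (0.825), Ccl5 (0.937), Lcn2 (1.06) and Saa3 (1.11). Cxcl1 and Cxcl2 stood 0.716 apart, Cxcl1 and Csf3 0.743, and Cxcl2 and Csf3 1.03. Cxcl1 was thus nearer to Csf3 than any gene listed for Csf3. Cxcl5 stood 2.35 to 3.1 from the other members, and its nearest genes were C1ra (0.335), Il2rg (0.404), Hspb1 (0.481), Cebpb (0.491) and Gbp7 (0.504). Nearest to the mean profile of the 4 genes were Slfn4 (0.33), Ccl2 (0.433), Cxcl9 (0.569), Zbp1 (0.596) and Mmp3 (0.597). The distances are a description without a test, since all profiles share the same libraries.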

How the data were processed

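The authors deposited log2 RPKM values after conditional quantile normalization, 1 column per sample, per the file header and the values, made on mm10 per the submitters' processing notes. The sources used here name no aligner, counter, annotation or strand setting and do not say how reads that match several genes were treated, so reads shared between similar chemokine genes could have been split or dropped. No counts were analysed, so depth is unknown and its effect on precision cannot be given. Of 33289 Ensembl IDs, 32695 were matched to a symbol in GENCODE vM21.

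Samples were grouped by the genotype and injection labels. Nothing says that the replicates of a group came from separate batches or days, so a p-value reflects only how far these samples spread. Genes with a log2 RPKM of at least -1 (0.5 RPKM) in at least 3 samples were tested (17349, with 15940 removed). A group-means model over all 16 samples was fitted with limma 3.58.1 in R 4.3.3, with a trend in the variance prior, and checked on simulated data. The 5 comparisons were the effect of LPS under each genotype label, the effect of the label after each injection, and the interaction. P-values are two-sided, with Benjamini-Hochberg adjustment over all genes tested, and calls were made at an adjusted p under 0.05. Log2 ratios between members were compared by exact permutation (SciPy 1.17.1). Alternatives were log2(RPKM + 0.5) and log2(RPKM + 0.1), no filter, a filter at log2 RPKM of 0 in 4 samples, median centring, no trend, only the groups compared, and each library left out.

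The 4 members, 9 pathway lists and 12 marker lists were chosen with earlier results of these data known. From each list the rule named up to 4 called genes with the largest change and the uncalled receptors. It also named the 5 nearest tested genes by profile, with the members left out and predicted or unnamed genes skipped. Other genes are named to account for list members under the filter or not called, and were chosen after their values were seen.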

Additional observations from a re-analysis of the deposited data

Results flagged for a closer look

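The test of a difference between the LPS effects of the genotypes passed for 6 of the 16 genes looked at (members, Lcn2, their receptors and other chemokine genes). Of all genes tested, 3.9% were called with a higher and 4.92% with a lower LPS effect under the Lcn2-/- label. The members and Lcn2 passed the filter on low values through their LPS libraries alone, so the count is given as a description. The LPS effect in brains labelled Lcn2-/- minus that in WT brains was 2.55 for Cxcl2 (limma adjusted p = 0.0071), 1.18 for Csf3 (0.0045), 0.94 for Cxcl16 (0.003), 0.43 for Ackr3 (0.0042), -0.40 for Cxcl12 (0.039) and -1.97 for Lcn2 (0.016), on the log2 scale with 4 samples per group.

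In 3 of 64 groups of 4 libraries, a single library lay far from the others, and chance sets a library apart in this way in about 1 group in 20. These were Cxcl1 in WT saline replicate 4 (log2 RPKM -1.91), Cxcl13 in WT LPS replicate 1 (0.052) and Ackr3 in WT LPS replicate 1 (2.36).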

How the results depend on the processing

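No paired analysis was possible because the labels give the groups no shared replicate number. The increases of Cxcl1, Cxcl2 and Csf3 after LPS, their genotype differences after LPS and the interactions of Cxcl2 and Csf3 kept their direction and stayed past the threshold under all alternatives run for them. Cxcl5 was not tested under the stricter filter. The genotype difference of Cxcl5 after LPS passed at 0.62 on log2(RPKM + 0.5) and at 0.95 with only the groups compared (limma adjusted p = 0.014 and 0.010), and ran from 0.83 to 1.11 with single libraries left out. Its LPS effect in WT ran from 1.10 to 1.53 with single libraries left out. The interaction of Cxcl1 passed at 1.47 and 1.35 on log2(RPKM + 0.5) and log2(RPKM + 0.1), and that of Cxcl5 at 0.78 on the first. The uncalled saline difference of Cxcl2 ran from -0.36 to 0.10 over libraries left out, and changed sign in 4 cases (0.05, 0.09, 0.10 and 0.06). Over libraries left out, the genotype difference in log2 ratio ran from -0.95 to -0.74 for Cxcl1 to Cxcl2, 0.56 to 0.79 for Cxcl1 to Cxcl5, 1.33 to 1.72 for Cxcl2 to Cxcl5, -0.80 to -0.59 for Cxcl5 to Csf3, and -0.057 to 0.066 for Cxcl1 to Csf3, the last changing sign in 3 cases (0.066, 0.018 and 0.0018); with 3 against 4 libraries none can pass.

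Without the filter, genes called numbered 17808 for LPS under the Lcn2-/- label and 13790 for LPS in WT, against 8386 and 4389 with it. The share higher fell to 22.0% and 16.8%, against 42.8% and 45.1%, as genes near the floor entered and the median of all genes shifted by -0.32 and -0.22. Unfiltered counts were 3 for genotype after saline (8 with the filter) and 905 for the interaction (1530). With only the groups compared they were 4393 for genotype after LPS (2739 in the fit of all groups) and 3 for genotype after saline. With single libraries left out, the count for genotype after LPS was 1511 to 1782 without Lcn2-/- LPS replicate 2 or 3 or WT LPS replicate 1 or 3, and 5169 without Lcn2-/- saline replicate 4; that for genotype after saline ran from 3 to 13; and that for the interaction ran from 740 to 2270, and was 1010 or less without WT saline replicate 3 or 4, WT LPS replicate 1, 2 or 3, or Lcn2-/- LPS replicate 2 or 3. The cause was not tested. Without counts, levels near the floor limit every fold against saline.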
